A study of Mus musculus with 6 samples.

Results

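Resident-type macrophage genes were followed in bulk RNA-Seq of mouse bone marrow-derived macrophages (BMDMs): the mannose receptor Mrc1, the folate receptor Folr2, the carbonyl reductase Cbr2, the organic anion transporter Slco2b1, the hyaluronan receptor Lyve1, the phosphatidylserine receptor Timd4, the Fc receptor-like gene Fcrls and the RNA-binding protein gene Zfp36l1. These 8 genes of the 25700 in the files were selected as a group named for its fall in this same contrast. Their own values are therefore given as a description and without a test. The heme group was 3 cultures of bone marrow from C57BL/6J mice aged 8 to 10 weeks, grown in M-CSF (100 ng/ml), to which 300 μM heme-albumin was added on day 3. The control group was 3 cultures of the same kind that received albumin without heme, and RNA of both groups was collected on day 7. Each library came from 1 mouse, no transgene or mutation was used, and these are cells differentiated in a dish, not macrophages taken from a tissue.

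Macrophages that settle in tissues carry a shared set of receptors with which they clear sugars, proteins and dying cells from their surroundings, and many of them express Mrc1, Folr2, Lyve1 or Timd4 as surface markers. M-CSF, the growth factor of these cultures, sustains such cells. Heme is released when red blood cells are broken down, and macrophages of spleen and liver take it up and degrade it with heme oxygenase.

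The 8 genes were grouped under a name that gives a loss with heme, and only 6 of them could be measured. For these 6 the loss restates how they were chosen. Mrc1, Folr2, Cbr2, Slco2b1, Fcrls and Zfp36l1 were measured in control BMDMs and stood at 0.247% to 9.97% of that level in heme-treated BMDMs. Lyve1 and Timd4 were at or near 0 in both groups, and no loss could be seen in them. For Lyve1, on chromosome 7 (chr7:110850607-110863239, minus strand), 0, 0 and 1 reads were counted in heme libraries 1 to 3, against 2, 0 and 0 in control libraries 1 to 3. For Timd4, on chromosome 11 (chr11:46810800-46844332, plus strand), the counts were 0, 0 and 0 with heme, against 1, 1 and 2 in controls. Every one of these is below 3 reads, the limit that a count of 0 allows in a library (0.0829 to 0.119 CPM), so no fold change is given. In the files, 42.6% of genes had 4 counts or fewer over the 6 libraries.

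The depth of the libraries was 27201038 to 32994595 counted reads. Levels below are counts scaled to the total of each library (CPM) after TMM normalization between libraries. The 12433 genes that passed a filter on low counts were tested with edgeR's quasi-likelihood test and called at a Benjamini-Hochberg adjusted p under 0.05. At that threshold 62.5% of tested genes were called, 30.8% as lower and 31.7% as higher with heme. The median log2 fold change of all tested genes was 0.00. Every count of called genes below is read beside these shares. The 6 measured members passed the filter and all were among the genes called lower, which follows from how they were chosen and is read against the background of 30.8%. Likewise, all heme libraries lay below all control libraries for each of the 6, as they did for 34.0% of tested genes. Only 1 of the 3 heme libraries reached 10 counts for Cbr2, so this gene passed the filter through its control libraries. As these are bulk samples, fewer cells expressing a gene and less of its RNA per cell cannot be told apart.

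The start sites of 4 measured members are shown first, as examples in which the letters upstream differ. Cbr2, which fell the furthest, and Fcrls are not shown. The sequences are the stretch before the gene start in the mouse assembly GRCm38.p6, from the RefSeq promoter table and read along the gene's own strand, with bases inside the annotated gene left out. Capitals mark GGAAGT, a core that PU.1 and other ETS factors recognise, TGANTCA, the AP-1 site, and TGCTGA, a core bound by MAF factors, each on either strand. The Mrc1 stretch is chr2:14229164-14229391 on the plus strand. The others lie on the minus strand, Folr2 at chr7:101857195-101857440, Slco2b1 at chr7:99711341-99711590 and Zfp36l1 at chr12:80113014-80113263.
Mrc1: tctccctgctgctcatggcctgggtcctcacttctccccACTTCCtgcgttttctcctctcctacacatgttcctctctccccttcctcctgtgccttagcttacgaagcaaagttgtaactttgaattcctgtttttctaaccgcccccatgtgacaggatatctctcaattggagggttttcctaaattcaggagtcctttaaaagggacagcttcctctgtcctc
Folr2: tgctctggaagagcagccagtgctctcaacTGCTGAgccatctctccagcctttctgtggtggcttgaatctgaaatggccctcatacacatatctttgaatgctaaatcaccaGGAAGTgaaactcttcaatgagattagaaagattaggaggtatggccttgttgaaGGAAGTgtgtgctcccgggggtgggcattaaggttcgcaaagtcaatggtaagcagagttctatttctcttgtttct
Slco2b1: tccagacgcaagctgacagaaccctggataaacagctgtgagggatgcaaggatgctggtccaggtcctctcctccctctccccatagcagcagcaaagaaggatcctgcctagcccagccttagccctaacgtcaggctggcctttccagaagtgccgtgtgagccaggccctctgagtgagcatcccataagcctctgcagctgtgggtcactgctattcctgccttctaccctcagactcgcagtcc
Zfp36l1: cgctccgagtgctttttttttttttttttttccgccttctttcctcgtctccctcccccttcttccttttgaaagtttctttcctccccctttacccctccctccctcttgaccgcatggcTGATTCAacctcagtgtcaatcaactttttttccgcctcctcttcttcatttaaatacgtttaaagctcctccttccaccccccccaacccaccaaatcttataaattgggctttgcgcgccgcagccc
The Mrc1 stretch holds the ETS core once, on the opposite strand, and the Folr2 stretch holds it at 2 places along with 1 MAF core. Upstream of Zfp36l1 there is 1 AP-1 match, and upstream of Slco2b1 none of these letters. Of the windows not shown, that of Timd4 held the ETS and MAF cores, and that of Cbr2 none of these letters. The Fcrls window held both cores inside the annotated gene. A further Folr2 window, also inside its gene, held an AP-1 match and a MAF core. Over the 250 bases before a start, GGAAGT was found in 19.7% of the 32851 promoter windows of the genome, TGANTCA in 6.75% and TGCTGA in 16.1%. The antioxidant response element TGACNNNGC, which NRF2 binds with a small MAF partner, was found on either strand in 10.2% of all windows and among the members only upstream of Folr2, and TTGCNNAA, a C/EBP core, in 9.56% of windows and upstream of no member. TATAAA, searched on the gene's own strand, was found in 7.59% of windows and in those of Fcrls and Zfp36l1. The search covered whole RefSeq windows, also where they run into the annotated gene, as 214 of the 250 bases do for Fcrls and 93 for Cbr2, and the Fcrls match lies across that border. The 7 members in the table had no motif of this search in common. The table has no window for Lyve1. Such matches describe the letters and show no binding.

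Among the surface receptors, Mrc1, whose product CD206 takes up mannose-bearing glycoproteins and collagen fragments, had the highest level in controls. Mrc1 (ENSMUSG00000026712, chr2:14229392-14332057, plus strand) stood at 19.9, 38.6 and 28.9 CPM in heme libraries 1 to 3, against 1115, 996 and 979.8 CPM in control libraries 1 to 3. The groups were far apart: the lowest control was 25.4 times the highest heme library, and heme 1 and heme 2 differed among themselves by 1.94 times. The means were 29.1 ± 9.38 CPM with heme and 1030.4 ± 74.1 CPM in controls (SD, n = 3 each), a log2 fold change of -5.15 (SE 0.22). The microRNA gene Mir511 lies within Mrc1 on the same strand and was not measured here.

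Folr2 encodes a glycosylphosphatidylinositol-anchored receptor that binds folate. Folr2 (ENSMUSG00000032725, chr7:101839988-101857194, minus strand) was measured at 15.3, 17.4 and 18.2 CPM with heme, against 197, 144 and 169 CPM in controls. It kept more of its RNA than any other measured member, 9.97% of the control level, and its heme libraries were the most alike, with a coefficient of variation of 8.87%. The means of 17.0 ± 1.50 CPM with heme and 170.1 ± 26.5 CPM in controls gave a log2 fold change of -3.33 (SE 0.12). Of all tested genes, 100 had a fall at least as large, Folr2 among them.

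Fcrls, a scavenger receptor-like relative of the Fc receptors that is widely used as a microglia marker in mice, behaved more like Mrc1. Fcrls (ENSMUSG00000015852, chr3:87250758-87263738, minus strand) was at 2.09, 3.83 and 1.94 CPM with heme, against 113, 107 and 92.9 CPM in controls. The heme libraries had 62, 97 and 53 reads, enough to place each of them below the controls, whose lowest was 24.3 times the highest heme library. The log2 fold change was -5.32 (SE 0.20), from means of 2.62 ± 1.05 CPM with heme and 104 ± 10.0 CPM in controls.

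Among the enzymes and transporters, Cbr2, a carbonyl reductase of the short-chain dehydrogenase family that is known from mouse lung, fell the furthest. Cbr2 (ENSMUSG00000025150, chr11:120729489-120732114, minus strand) had 2, 18 and 7 reads in the heme libraries, against 5815, 4308 and 4252 reads in the control libraries. In CPM these are 0.0673, 0.711 and 0.257 with heme, against 161, 129 and 130.0 in controls. The level in heme-treated BMDMs was 0.247% of that in controls, and the log2 fold change of -8.71 (SE 0.29) was exceeded in the downward direction by 1 of the 12433 tested genes. The heme libraries were not alike: the exact 95% Poisson interval of the count, which covers counting error only, was 0.242 to 7.22 reads in heme 1 and 10.7 to 28.4 reads in heme 2. Without heme 2 the log2 fold change was -9.75, so this 1 library set much of the remaining level.

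Slco2b1 encodes an organic anion transporter of the plasma membrane that carries steroid sulfates and many drugs. Slco2b1 (ENSMUSG00000030737, chr7:99657804-99711340, minus strand) stood at 0.438, 0.909 and 0.624 CPM with heme, from 13, 23 and 17 reads, against 26.0, 27.1 and 22.2 CPM in controls. No heme library came near the controls, and the 95% Poisson intervals of the heme counts overlapped one another (6.92 to 22.2 reads in heme 1 and 14.6 to 34.5 in heme 2). The means were 0.657 ± 0.237 CPM with heme and 25.1 ± 2.55 CPM in controls, with a log2 fold change of -5.27 (SE 0.19). The antisense genes Gm15635 and Gm34280 overlap Slco2b1 and, like Gm10602 over Folr2 and Gm26669 over Zfp36l1, were not used here. The libraries were stranded, but the strand setting of the counting is not given in the sources used here, so reads of these partners cannot be told apart from those of the members.

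Zfp36l1 encodes a zinc finger protein that binds AU-rich elements in the 3′ untranslated region of mRNAs and directs them to decay. Zfp36l1 (ENSMUSG00000021127, chr12:80107754-80113013, minus strand) was at 2.26, 3.91 and 2.16 CPM with heme, against 75.8, 104 and 85.5 CPM in controls. The groups did not overlap, and the spread within the controls (1.37 times between highest and lowest) was smaller than that within the heme libraries (1.81 times). The means were 2.78 ± 0.983 CPM with heme and 88.5 ± 14.4 CPM in controls, and the log2 fold change was -5.01 (SE 0.20).

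**Figure D1:**
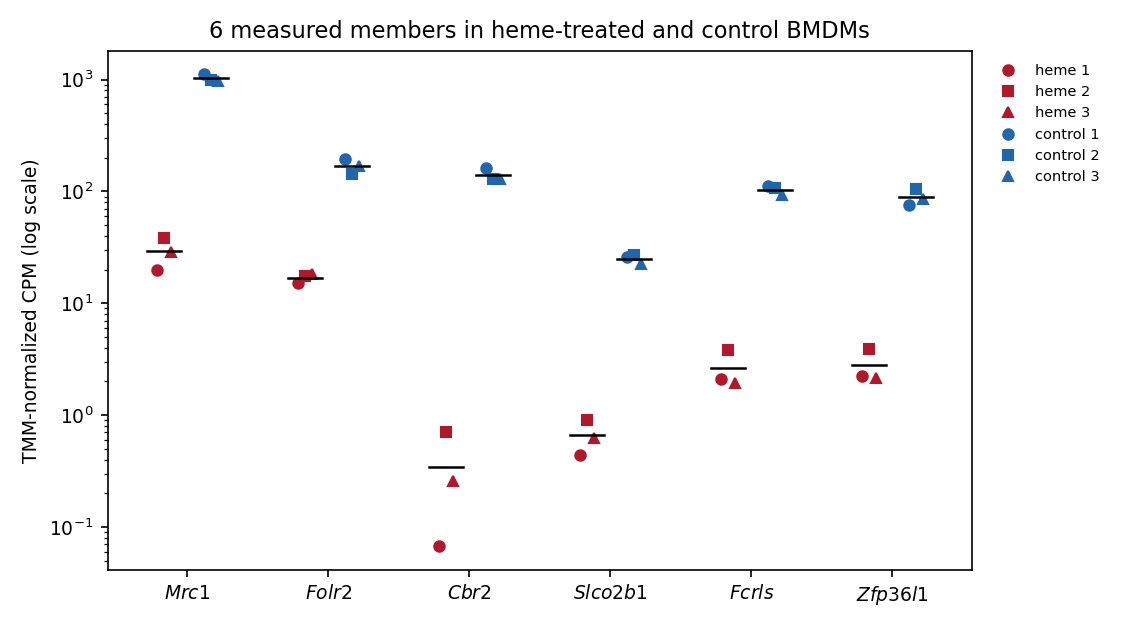
The plot gives the level of the 6 measured members in each library as TMM-normalized CPM on a log axis, with 3 heme libraries (red) left of 3 control libraries (blue) for each gene and a black line at each mean. Cbr2 shows the widest gap and the widest spread among heme libraries, and Folr2, at 17.0 ± 1.50 CPM with heme, the narrowest gap.

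Per kilobase of annotated exon, the order of the members differed between the groups. In heme-treated BMDMs Folr2 came first at 11.0 ± 0.973 CPM per kb, ahead of Mrc1 at 4.57 ± 1.47, and the ranges of the 2 did not overlap. Below them, Fcrls (1.12 ± 0.450 CPM per kb) and Zfp36l1 (0.929 ± 0.329) were within their spread of each other, as were Cbr2 (0.260 ± 0.249) and Slco2b1 (0.110 ± 0.0398). In controls Mrc1 came first at 162 ± 11.6 CPM per kb. Folr2 (110.1 ± 17.1 CPM per kb) and Cbr2 (105 ± 13.7) followed within their spread of each other, and then Fcrls (44.6 ± 4.30), Zfp36l1 (29.6 ± 4.83) and Slco2b1 (4.21 ± 0.428). Cbr2 thus stood beside Folr2 in controls and more than an order of magnitude below it with heme. Together, the 8 genes took 0.00487 ± 0.00121% of all counts in heme libraries and 0.168 ± 0.0146% in control libraries.

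What was left of the members after heme varied between the heme libraries. The coefficient of variation was 32.2% to 95.9% with heme and 7.19% to 16.3% in controls for the members other than Folr2. Folr2 went the other way, with 8.87% with heme and 15.6% in controls. Counting error is part of the spread with heme and was not separated from it. Cbr2, Slco2b1, Fcrls and Zfp36l1 had 2 to 99 reads in a heme library, against 727 to 5815 in a control library. Heme 2 had the highest level of Mrc1, Cbr2, Slco2b1, Fcrls and Zfp36l1, while Folr2 was highest in heme 3. The same library was highest for 18 of 24 other resident-type genes called lower with heme, and for 47.8% of all 3831 genes called lower. C1qa, for example, was at 7.24, 15.2 and 8.91 CPM in heme 1 to 3. Heme 2 was also the library with the fewest counts (27201038), and the part of depth in this order was not tested.

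**Figure D2:**
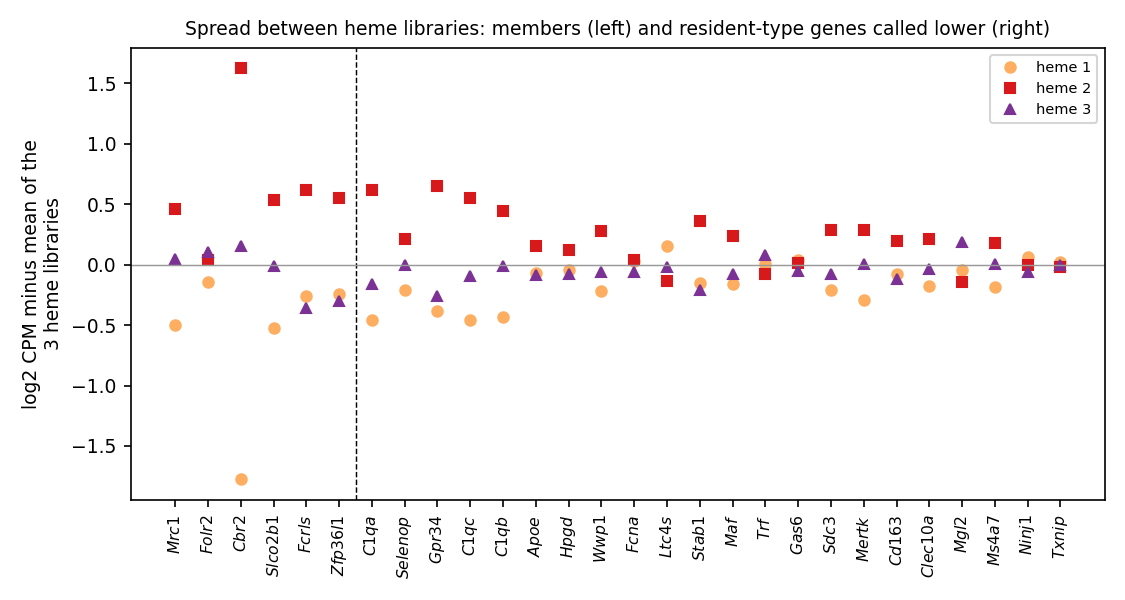
The plot gives, for the 6 measured members (left of the dashed line) and 22 other resident-type genes called lower (right), the log2 CPM of each heme library minus the mean of the 3 heme libraries; C4b, with no read in 1 heme library, is not drawn. Heme 2 (red squares) is highest for 5 of the 6 members, and the widest spread is that of Cbr2.

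The members belong to protein families, and their relatives moved in both directions. Of 17 tested relatives, 5 were lower with heme, 7 higher and 5 not called, beside 30.8% lower and 31.7% higher among all tested genes. In the mannose receptor family, Ly75, the endocytic receptor DEC-205, was higher with heme, at 7.54 ± 0.542 CPM against 1.09 ± 0.328 CPM in controls (log2 fold change 2.79, SE 0.19, adjusted p = 1.87e-06, edgeR). Pla2r1, the phospholipase A2 receptor, was lower, at 0.339 ± 0.186 CPM with heme and 1.12 ± 0.282 CPM in controls (log2 fold change -1.71, SE 0.38, adjusted p = 0.00314, edgeR). It had 28 reads with heme and 115 in controls, and was not called under a filter of at least 1 CPM in 3 libraries. Mrc2 was not detectable at this depth, with 1 read in all. Folr1, the other folate receptor measured, was low in both groups and lower with heme (1.31 ± 0.250 CPM with heme and 2.60 ± 0.344 CPM in controls, log2 fold change -0.99, adjusted p = 0.00212, edgeR).

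The reductases related to Cbr2 went in different directions. Cbr3, which reduces carbonyl compounds such as anthracyclines and is known as an NRF2 target, was higher with heme, at 104 ± 7.51 CPM against 49.8 ± 2.65 CPM in controls (log2 fold change 1.07, adjusted p = 1.90e-06, edgeR). Cbr1 was higher by a log2 fold change of 0.35 (adjusted p = 0.00386, edgeR), a call that was lost when libraries were scaled by their totals alone. Dcxr, which reduces L-xylulose, was lower, at 13.9 ± 1.16 CPM with heme and 45.2 ± 3.35 CPM in controls (log2 fold change -1.71, adjusted p = 2.68e-07, edgeR). For mitochondrial Cbr4 the levels were 9.04 ± 0.661 CPM with heme and 8.51 ± 0.925 CPM in controls, which did not pass the test (adjusted p = 0.540, edgeR). Per kilobase, Cbr3 was the highest of the 5 reductases with heme (83.1 ± 5.99 CPM per kb), and Cbr2 was the highest in controls.

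Of the 13 listed transporters related to Slco2b1, 3 were expressed enough to be tested and none was called lower. Slco3a1, a prostaglandin and thyroid hormone transporter, was higher with heme (16.5 ± 1.12 CPM against 8.27 ± 0.837 CPM in controls, log2 fold change 1.00, adjusted p = 3.13e-05, edgeR). Slco4a1 had the highest level of the family, 57.6 ± 22.0 CPM per kb with heme and 37.9 ± 14.4 CPM per kb in controls. Its libraries overlapped between the groups, and its log2 fold change of 0.60 (SE 0.30) did not pass the test (adjusted p = 0.110, edgeR). Leaving out 1 library, it ranged from 0.29 (without heme 1) to 0.93 (without control 3), and it passed the test without control 3 (adjusted p = 0.0252, edgeR) and without heme 2 (0.85, adjusted p = 0.0317, edgeR). Slco5a1 was below 1 CPM in both groups. Among 15 tested transporters of organic anions and heme, 9 were higher and 3 lower, with a median log2 fold change of 0.62. The count of 3 lower was 1 without control 3, without heme 1 or without heme 3. Those higher included Abcc4 and Abcc1, exporters of organic anions, by log2 fold changes of 2.57 (adjusted p = 1.02e-08) and 1.75 (adjusted p = 8.79e-08), and Slc48a1, which moves heme out of the phagolysosome, by 1.73 (adjusted p = 4.10e-08, all edgeR).

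Relatives of Lyve1 and Timd4 were measured although these members were not. The scavenger receptor Stab1 was lower with heme, at 283, 403 and 271 CPM, against 1649, 1590 and 1694 CPM in controls (log2 fold change -2.37, SE 0.14, adjusted p = 7.18e-07, edgeR). Stab2, which clears hyaluronan, was lower too, at 0.194 ± 0.00972 CPM with heme and 4.39 ± 1.67 CPM in controls (log2 fold change -4.47, SE 0.39, adjusted p = 7.90e-06, edgeR). Its heme level rests on 16 reads over the 3 heme libraries, against 447 in controls, too few to read the small SD as precision. Cd44, the widespread hyaluronan receptor, was higher, at 421 ± 54.4 CPM with heme and 227 ± 36.0 CPM in controls (log2 fold change 0.89, adjusted p = 0.000210, edgeR). Of 13 tested genes of hyaluronan binding and turnover, 8 were lower, 3 higher and 2 not called, with a median of -0.66. The largest rise in that list was in Layn, a lectin-type hyaluronan receptor, at 230 ± 21.9 CPM with heme and 18.5 ± 1.28 CPM in controls (log2 fold change 3.64, adjusted p = 4.26e-09, edgeR).

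In the TIM family of Timd4, Havcr2, which encodes TIM-3, was higher with heme. It was at 35.7, 36.2 and 35.3 CPM with heme, against 11.1, 9.34 and 9.30 CPM in controls, with no overlap (log2 fold change 1.85, SE 0.09, adjusted p = 1.43e-07, edgeR). Of 17 tested receptors of phosphatidylserine and proteins that bridge to it, 10 were lower, 5 higher and 2 not called (median -0.33). Among all tested genes, 30.8% were lower and 31.7% higher. Of the lower ones, C1qa, Stab1, Gas6 and Mertk are also in the resident-type list below, and Stab1 and Stab2 in the hyaluronan list. The lower ones included Gas6, the bridge between dying cells and the receptors Axl and Mertk, at 453 ± 14.1 CPM with heme and 2024 ± 67.3 CPM in controls (log2 fold change -2.16, adjusted p = 1.91e-08, edgeR). The higher ones included the scavenger receptor Cd36, by 1.62 (adjusted p = 2.93e-07, edgeR). Fcrl1, the only relative of Fcrls that passed the filter, was higher by 1.02 (58.9 ± 5.46 CPM with heme and 29.1 ± 2.25 CPM in controls, adjusted p = 7.55e-06, edgeR).

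**Figure D3:**
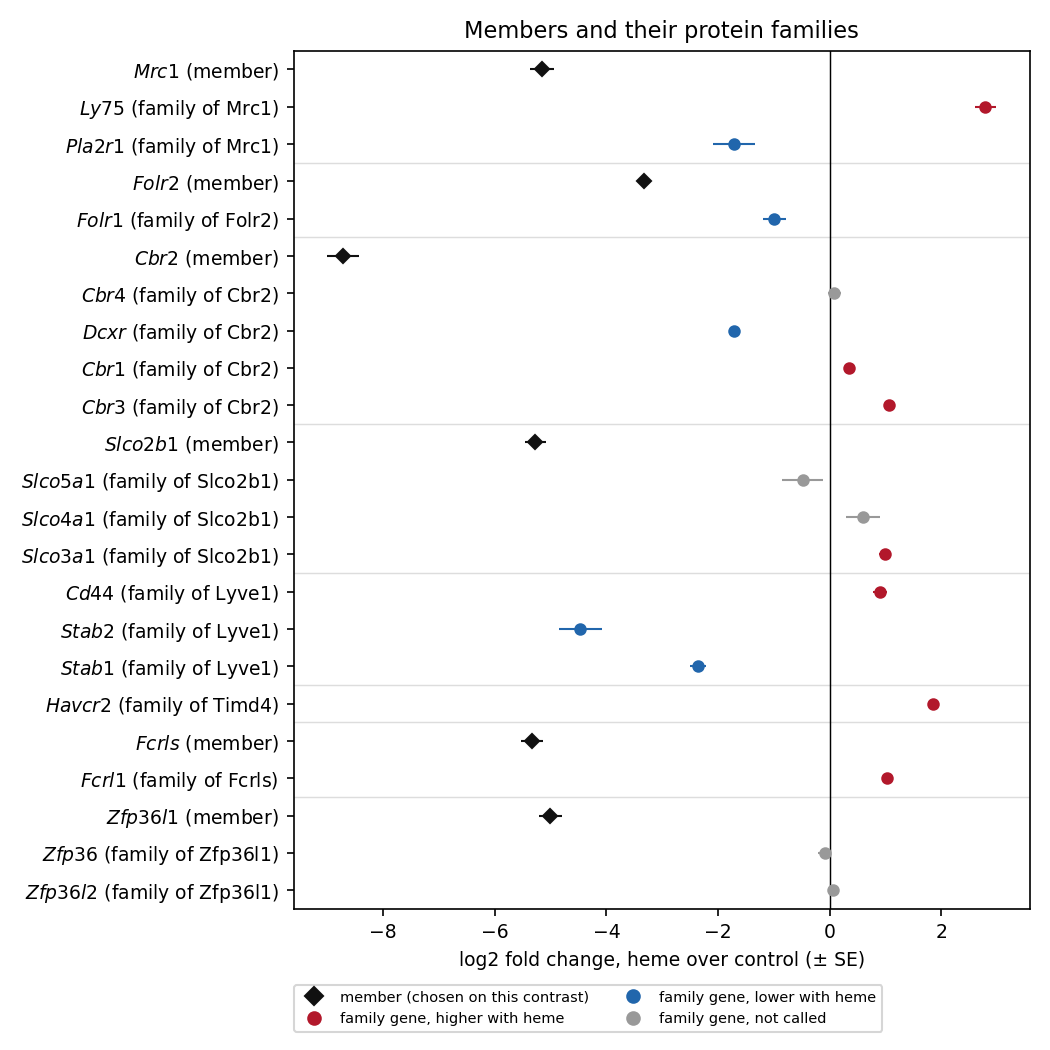
The plot gives the log2 fold change, heme over control, with its SE for each measured member (black diamonds) and each tested relative in its protein family (circles, red where called higher, blue where called lower, grey where not called). Relatives of Lyve1 and Timd4 are drawn without these members, which were not measurable. The 6 measured members were selected on their fall in this contrast and the relatives were not. That the members fell further than their tested relatives is therefore no result about the families.

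The family of Zfp36l1 had 2 tested relatives. Zfp36, which encodes tristetraprolin, was at 85.9 ± 15.6 CPM with heme and 91.3 ± 6.02 CPM in controls (log2 fold change -0.09, SE 0.12, adjusted p = 0.525, edgeR). Zfp36l2 was at 357 ± 16.0 CPM with heme and 344 ± 34.7 CPM in controls (log2 fold change 0.06, SE 0.08, adjusted p = 0.577, edgeR). Neither passed the test, although Zfp36 was called lower without heme 2 (-0.25, adjusted p = 0.0282, edgeR) and under scaling by library totals alone (-0.31, adjusted p = 0.0401, edgeR). Per kilobase, Zfp36l1 made up 0.732% of the summed family level with heme and 19.3% in controls.

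The site that ZFP36 proteins bind is written TATTTAT in the genome, and Zfp36l1 mRNA carries it itself. In the longest annotated 3′ untranslated region of each gene, TATTTAT was found at 3 places in Zfp36l1 and 2 in Mrc1, and in no other member. Among reported targets of ZFP36L1 it was found at 8 places in Tnf, 7 in Cxcl2, and 6 each in Cxcl1 and Ptgs2. It was absent from Ccl2, Ccnd3, Cdkn1a and Myc. The stretch around the first of these sites is shown for Zfp36l1, Mrc1 and 3 targets, with TATTTAT in capitals.
Zfp36l1: caaaacgTATTTATtgccaaa
Mrc1: agaactgTATTTATccacatg
Ptgs2: ctgaccaTATTTATttattta
Tnf: ccccctcTATTTATatttgca
Vegfa: tttcaacTATTTATgagatgt
Of 20 tested targets from this list, 11 were higher with heme, 1 lower and 8 not called, with a median log2 fold change of 0.56, beside 31.7% of all tested genes higher. Without control 2, and likewise under scaling by library totals alone, 4 of them were called lower. Of the 12 tested targets with 3 or more sites, 7 were higher and 1 lower (median 0.75). Of the 8 with fewer sites, 4 were higher and 0 lower (median 0.35). Ptgs2, which encodes the prostaglandin synthase COX-2, was at 92.8, 70.5 and 81.7 CPM with heme, against 0.635, 0.328 and 0.459 CPM in controls (log2 fold change 7.41, SE 0.18, adjusted p = 3.31e-09, edgeR). The chemokine gene Cxcl2 (26.9 ± 14.9 CPM with heme and 1.47 ± 0.317 CPM in controls, log2 fold change 4.18) and Tnf (90.0 ± 26.6 CPM with heme and 17.6 ± 4.66 CPM in controls, log2 fold change 2.35) were higher too (adjusted p = 1.49e-05 and 1.73e-05, edgeR). Vegfa, the vascular growth factor gene, was the exception, at 35.8 ± 3.27 CPM with heme and 91.2 ± 6.25 CPM in controls (log2 fold change -1.35, adjusted p = 9.61e-07, edgeR), although its 3′ untranslated region holds 3 sites. Il6 and Il1b, also listed as targets, did not pass the filter.

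Genes were also grouped by the number of sites, over all tested genes with an annotated 3′ untranslated region. The median log2 fold change was -0.01 over 8410 tested genes without the site, 0.05 over 2322 genes with 1 site, 0.01 over 774 genes with 2 and 0.03 over 472 genes with 3 or more. The share called higher was 31.5%, 33.5%, 33.1% and 34.5% in that order. These are descriptions, since genes with more sites also had longer 3′ untranslated regions, with medians from 849 bases without a site to 3260 bases with 3 or more. Of 16 tested genes of mRNA decay and its regulation linked to ZFP36 proteins, 9 were lower, 1 higher and 6 not called, with a median of -0.24. The list mixes decay enzymes with regulators of mRNA stability such as Elavl1, so its count gives no direction for decay. The higher one, Elavl1, lost its call without control 2, control 3 or heme 2, and 14 were lower under scaling by library totals alone. Among those lower were Dcp2, the decapping enzyme, by -1.08 (adjusted p = 9.65e-06), and Cnot6l, a deadenylase, by -0.63 (adjusted p = 2.61e-05, both edgeR).

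Other genes linked to resident-type macrophages were examined to see how far the pattern reached. Of 37 listed genes, 29 passed the filter, and 24 of these were lower with heme, 2 higher and 3 not called, with a median log2 fold change of -2.16 beside 0.00 for all tested genes. The genes of the complement component C1q, which tags dying cells, were among them. C1qa was at 10.5 ± 4.22 CPM with heme and 316 ± 45.1 CPM in controls (log2 fold change -4.93, SE 0.24, adjusted p = 2.02e-07, edgeR), and C1qc at 48.2 ± 17.6 CPM with heme and 975 ± 60.7 CPM in controls (log2 fold change -4.34, adjusted p = 3.01e-07, edgeR). Selenop, the selenium transport protein, was at 148 ± 21.9 CPM with heme and 4268 ± 1517 CPM in controls (log2 fold change -4.85, adjusted p = 3.19e-07, edgeR). The list was written with earlier results of these data known.

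The fall did not extend to the whole list. Pf4, a chemokine gene shared with megakaryocytes, was higher with heme, at 203 ± 23.6 CPM against 32.5 ± 8.79 CPM in controls (log2 fold change 2.64, SE 0.17, adjusted p = 1.28e-06, edgeR). Ednrb, the endothelin receptor, was higher by 0.30 (adjusted p = 0.0316, edgeR), a call that was lost without any 1 of the heme libraries and under scaling by totals alone. Igf1, a growth factor gene of resident macrophages, had 1021 ± 139 CPM with heme and 1076 ± 36.2 CPM in controls, and did not pass the test (adjusted p = 0.519, edgeR). Cd163, the hemoglobin scavenger receptor, was lower by -1.71 (12.6 ± 1.52 CPM with heme and 41.1 ± 2.36 CPM in controls, adjusted p = 4.45e-07, edgeR). Vsig4, Ccl8, Ccl24 and the Cd209 genes of the list were below the filter.

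**Figure D4:**
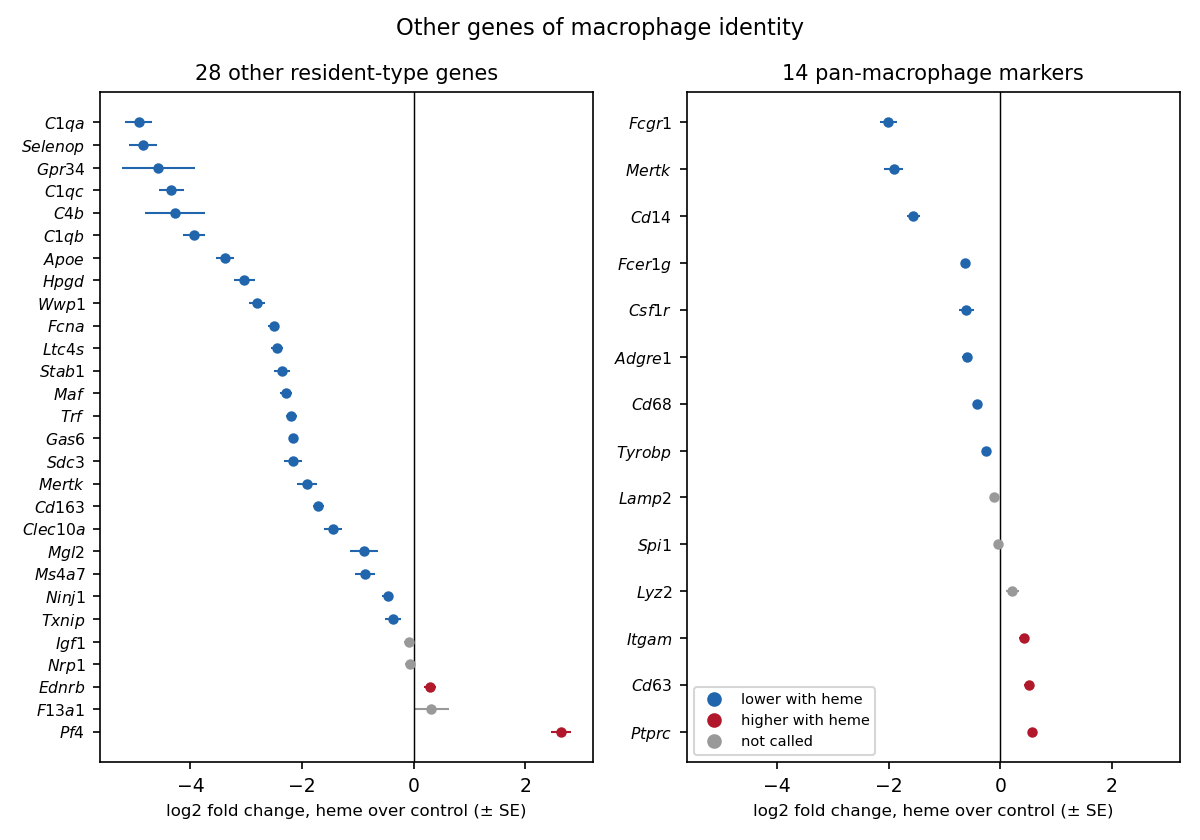
The plot gives the log2 fold change, heme over control, with its SE for 28 of the 29 tested genes of the resident-type list (left) and 14 markers shared by all macrophages (right), coloured by call. Most resident-type genes lie to the left of 0, down to -4.93 for C1qa, while the shared markers lie between -2.01 and 0.58.

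Markers that macrophages share were expressed in both groups. Of 14 such genes, 8 were lower, 3 higher and 3 not called (median -0.34), and their summed level was 39715 to 42928 CPM in heme libraries and 35068 to 41239 CPM in control libraries. Most of that sum was Lyz2, the lysozyme gene, at 32552 ± 1580.3 CPM with heme and 28007 ± 2591 CPM in controls, which did not pass the test (log2 fold change 0.22, adjusted p = 0.122, edgeR). The largest falls were in the Fc receptor gene Fcgr1 (-2.01, adjusted p = 2.82e-06), the phagocytic receptor gene Mertk (-1.91, adjusted p = 1.03e-05) and the lipopolysaccharide co-receptor gene Cd14 (-1.56, adjusted p = 2.49e-06, all edgeR). Adgre1, which encodes F4/80, was at 677 ± 46.9 CPM with heme and 1027 ± 64.1 CPM in controls (log2 fold change -0.60, adjusted p = 0.000128, edgeR). Csf1r, the receptor for M-CSF, was lower by -0.61 (adjusted p = 0.00237, edgeR). Spi1, which encodes PU.1, the factor whose core was searched for above, was at 292 ± 4.53 CPM with heme and 301 ± 18.8 CPM in controls (log2 fold change -0.04, adjusted p = 0.571, edgeR).

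Genes that mark macrophages of particular organs moved in both directions. Of 15 tested genes of Kupffer cells and red pulp macrophages, 7 were higher, 4 lower and 4 not called. Spic, the factor of red pulp macrophages, was at 14.8, 21.6 and 17.1 CPM with heme, against 0.138, 0.418 and 0.306 CPM in controls (log2 fold change 5.95, SE 0.27, adjusted p = 1.20e-07, edgeR), while Clec4f, the Kupffer cell lectin, had no read in any library. Among 11 microglia genes, the group to which Fcrls also belongs, 6 were lower and 4 higher. P2ry12 was lower (3.31 ± 1.08 CPM with heme and 9.67 ± 1.76 CPM in controls, log2 fold change -1.56, adjusted p = 0.000190, edgeR), and Tmem119 was higher (3.70 ± 0.0833 CPM with heme and 0.825 ± 0.186 CPM in controls, log2 fold change 2.16, adjusted p = 1.01e-05, edgeR). Of 9 tested genes of large peritoneal macrophages, which express Timd4 in mice, 4 were higher, 1 lower (Garnl3, a call lost without heme 1 or heme 3) and 4 not called, and their defining factor Gata6 had no read in any library. Of 15 monocyte genes, 12 were higher and 2 lower, with a median log2 fold change of 2.37. Among all tested genes, 31.7% were higher and 30.8% lower. The 2 lower were Ms4a4c (-2.70, adjusted p = 0.000489) and the chemokine receptor gene Ccr2 (-0.90, adjusted p = 0.000361, both edgeR). Ccr2 was at 12.6 ± 2.56 CPM with heme and 23.6 ± 1.87 CPM in controls.

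Among 30 regulators of macrophage transcription, 12 were lower, 11 higher and 7 not called, and the median was 0.06. Maf, the factor that binds the TGCTGA core and that is needed for resident-type genes in several tissues of mice, was at 66.0, 87.0 and 69.9 CPM with heme, against 384, 376 and 331 CPM in controls (log2 fold change -2.29, SE 0.11, adjusted p = 1.71e-07, edgeR). Smad3, a mediator of TGF-β signals, was lower by -2.50 (2.05 ± 0.0902 CPM with heme and 11.6 ± 0.885 CPM in controls, adjusted p = 2.16e-07, edgeR). The part of these regulators in the levels of the members was not tested.

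The uptake routes to which Mrc1 and Folr2 belong were examined as well. Of 11 tested lectin receptors other than Mrc1, 7 were higher, 3 lower and 1 not called (median 0.74). Clec4n, which encodes Dectin-2, a receptor for fungal mannans, was at 1723 ± 58.8 CPM with heme and 28.1 ± 6.57 CPM in controls (log2 fold change 5.94, adjusted p = 9.70e-09, edgeR), and Clec12a was lower by -2.09 (adjusted p = 5.86e-07, edgeR). Of 19 genes of folate uptake and the folate cycle, 9 were higher, 6 lower and 4 not called (median 0.21). The mitochondrial enzymes Mthfd2 (94.4 ± 1.50 CPM with heme and 24.9 ± 8.16 CPM in controls) and Mthfd1l (65.7 ± 0.840 CPM with heme and 17.7 ± 5.10 CPM in controls) were higher, Mthfd2 by 1.92 (adjusted p = 1.63e-05) and Mthfd1l by 1.89 on the log2 scale (adjusted p = 8.03e-06, both edgeR). Aldh1l1, the cytosolic enzyme that oxidises formyl-folate, was lower, at 3.80 ± 0.955 CPM with heme and 24.9 ± 3.16 CPM in controls (log2 fold change -2.72, adjusted p = 8.29e-07, edgeR). Of 19 listed genes of the IL-4 response, in which Mrc1 is also a marker, 12 were tested. Of these, 9 were higher and 3 lower (median 1.16), beside 31.7% and 30.8% of all tested genes. Retnla, Ccl17 and Arg1 of that list did not pass the filter. Retnla and Ccl17 had no read in any library, and Arg1 had 1 read with heme and 132 in controls.

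Markers of other cells were examined in the same libraries, and they moved in both directions. The 12 listed neutrophil markers summed to 1384 to 1530 CPM in heme libraries and 86.9 to 154.3 CPM in control libraries. Of the 9 that were tested, 8 were higher and 1 lower. Most of that sum was Mmp8 (1296 ± 83.0 CPM with heme and 30.8 ± 4.92 CPM in controls), but the granule genes Mpo and Elane, which mark early neutrophil precursors, had 1813 and 316 reads over the heme libraries and 1 and 0 over the controls. Ly6g, the defining neutrophil surface marker, had 9 reads with heme and 1 in controls. Cd3e, which defines T cells, had no read in any library, while 2 of the 3 tested genes of the B, T and NK cell list were lower, Ighm at 46.7 ± 8.01 CPM with heme and 240.5 ± 18.3 CPM in controls (adjusted p = 2.11e-07, edgeR) and Cd4 at 0.472 ± 0.293 CPM with heme and 5.46 ± 1.89 CPM in controls (adjusted p = 4.55e-05, edgeR). The 11 genes of that list summed to 41.9 to 56.7 CPM with heme and 229.9 to 269 CPM in controls. Prox1 of lymphatic endothelium, where Lyve1 is also expressed, had 2 reads in each group. Of 7 tested endothelial and lymphatic markers 3 were higher and 2 lower (1 without heme 1). The 12 listed ones summed to 482 to 534 CPM with heme and 116 to 137 CPM in controls, and the largest rise was in Esam, an adhesion molecule gene (251 ± 15.1 CPM with heme and 0.901 ± 0.152 CPM in controls, log2 fold change 8.12, adjusted p = 2.75e-10, edgeR). Of 4 tested mast cell and basophil markers 3 were higher, and the 8 listed ones summed to 3.64 to 6.13 CPM with heme and 0.597 to 1.07 CPM in controls. All 4 tested erythroid and megakaryocyte markers were higher, Pf4 among them. The 11 listed ones summed to 180.2 to 225 CPM with heme and 26.0 to 42.7 CPM in controls. Most of that sum was Pf4 (203 ± 23.6 CPM with heme and 32.5 ± 8.79 CPM in controls), which is also in the resident-type list. Both tested stromal markers were higher, with 15.2 to 16.2 CPM with heme and 2.08 to 2.60 CPM in controls summed over the 10 listed. Most of this was Acta2 (14.4 ± 0.342 CPM with heme and 1.84 ± 0.416 CPM in controls). Of 2 tested dendritic cell markers 1 was higher and 1 lower. The part of other cells in the levels of the members was not tested.

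Around the members on the chromosomes, neighbouring genes moved in both directions. Of the 12 nearest tested neighbours of the 6 measured members, 6 were lower, 3 higher and 3 not called (median log2 fold change -0.27). Over all tested genes, 30.8% were lower and 31.7% higher. Tpbgl, 30.7 kb from Slco2b1, fell as far as the member itself, at 0.209 ± 0.0586 CPM with heme and 9.06 ± 1.31 CPM in controls (log2 fold change -5.43, SE 0.23, adjusted p = 8.79e-08, edgeR). Inppl1, a lipid phosphatase gene 1.76 kb from Folr2, was lower by -1.05 (adjusted p = 4.15e-06, edgeR), and Folr1 lies 1.14 kb on the other side. Dcxr, lower with heme as given above, lies 2.21 kb from Cbr2. Near Mrc1, Stam and Nsun6 were not called (0.07 on the log2 scale for Stam, adjusted p = 0.421, and -0.18 for Nsun6, adjusted p = 0.295, both edgeR). Near Fcrls, Cd1d1, which presents lipids, was higher by 2.13 (adjusted p = 1.10e-06, edgeR), and near Zfp36l1 the actin crosslinker gene Actn1 was higher by 0.28 (adjusted p = 0.00728, edgeR). Under scaling by library totals alone, Actn1 lost its call (0.06, adjusted p = 0.503) and Nsun6 was called lower (-0.40, adjusted p = 0.0313, both edgeR).

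The genes whose pattern over the 6 libraries was most like that of the members were sought among 8943 tested genes with an average log2 CPM of at least 3. Likeness was the root-mean-square distance between a gene's centred log2 CPM and the mean of the 6 measured members. C1qa was nearest, at a distance of 0.226 on the log2 scale. The interferon-stimulated genes Oasl2 (0.319), Oas2 (0.385) and Ifit1 (0.414) followed, and then Ccdc152 (0.448), which overlaps Selenop. Oasl2 was at 2.41 ± 0.610 CPM with heme and 89.5 ± 27.0 CPM in controls, Oas2 at 0.496 ± 0.0687 CPM with heme and 25.8 ± 4.40 CPM in controls, and Ifit1 at 0.576 ± 0.0861 CPM with heme and 32.2 ± 13.5 CPM in controls. The distances are a description over 6 libraries, most of it set by the gap between the groups.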

How the data were processed

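Bulk RNA-Seq (stranded TruSeq, RNA integrity above 9) measured 3 heme-treated and 3 control BMDM cultures. The deposited values are raw, whole-number counts of reads for every Ensembl gene, 1 file a library, made by the authors on GRCm38.p5 with STAR 2.7.0 and featureCounts according to the labels. The sources used here give neither the annotation release nor the strand setting. GENCODE M21 (GRCm38.p6) supplied gene symbols, for 25664 of 25700 identifiers, and coordinates.

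In R 4.3.3, edgeR 4.0.16 retained 12433 genes (filterByExpr, minimum count 10) and, after TMM normalization, fitted condition as the only term (glmQLFit, glmQLFTest, prior count 0.125). Genes were called at a Benjamini-Hochberg adjusted p under 0.05. A standard error is the absolute log2 fold change divided by the square root of F. Levels per kb were divided by annotated exon length. The code was tested on simulated counts.

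The members and all gene lists were chosen with earlier results of these data known, and lists are described by counts and medians. A gene in several lists was counted under each, so the lists are not separate results. Named genes were the members, their tested relatives and neighbours, the 5 nearest patterns, and in each list up to 4 called genes with the largest change in the main direction and up to 2 in the other direction. Outside it, Igf1, Adgre1, Csf1r, Spi1, Lyz2 and defining markers of other cells were picked with their values in view. Alternatives were 3 other scalings, DESeq2 1.42.0, limma-voom (limma 3.58.1), other filters, a prior count of 2, a replicate block and leaving out each library. Heme and control libraries that share a number did not deviate together (correlations of their deviations -0.109, -0.151 and -0.0744), and the number was not used as a pairing. Other experiments of the study were not analysed here, and values of a few genes are left out of the text and plots.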

Additional observations from a re-analysis of the deposited data

How the results depend on the processing

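All 6 measured members remained called lower under each of the 15 alternatives. Leaving out 1 library at a time, their log2 fold changes ranged from -5.40 to -4.93 (Mrc1), -3.44 to -3.21 (Folr2), -9.75 to -8.18 (Cbr2, the lowest without heme 2), -5.56 to -5.03 (Slco2b1), -5.68 to -5.15 (Fcrls) and -5.32 to -4.86 (Zfp36l1). Scaling by library totals alone, which shifted the median of all tested genes by -0.22, gave -3.55 for Folr2, 5814 genes lower and 2580 higher (main values 3831 and 3938), and 1 resident-type gene higher in place of 2. The same count was 1 to 2 when single libraries were left out. That scaling also turned the direction of Cbr4 (-0.13), Zfp36l2 (-0.16) and Stam (-0.16), none of them called. Leaving out 1 library, Zfp36l2 ranged from -0.030 (without control 1) to 0.10, and Rack1, a neighbour of Timd4, from -0.058 to 0.037 (without heme 2; 0.018 without control 2). With the replicate block, 3671 genes were higher and 3493 lower, Slco4a1 was called higher (0.60, adjusted p = 0.0202, edgeR), and the 6 members remained lower. DESeq2 called 3693 genes lower and limma-voom 3774. Depth limits Lyve1 and Timd4, with at most 2 reads in a library, and Cbr2 in heme-treated BMDMs. Each library came from 1 mouse, so p-values measure the spread between these cultures.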
